A study of Homo sapiens with 12 samples.

Results

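The YAP/TEAD genes described here are the transcriptional coactivators YAP1 and WWTR1, the DNA-binding factors TEAD1 and TEAD4, and 6 commonly used target genes of these factors, CCN1 (also named CYR61), CCN2 (also named CTGF), ANKRD1, AMOTL2, LATS2, and AXL. They were chosen by name, and all 16 probes whose RefSeq accession maps to one of the 10 genes were taken, of 43376 features that are not control spots and 17240 gene symbols on the array. RNA was profiled on 12 arrays with 2 colors each, of Agilent's 4x44K human design. In Ls174T cells, a human colorectal cancer line with constitutively active Wnt signaling, si-b-catenin RNA was hybridized directly against si-control RNA on 2 arrays with the dyes exchanged, and RNA of cells that received si-control or an siRNA against MLLT10 (the protein AF10), BRG1, or P300 had 1 array each with universal human reference RNA in the other channel. In HEK293T cells, a human embryonic kidney line whose Wnt pathway responds to ligand, 1 array with the reference RNA held si-control RNA in control medium (CM), another si-control RNA in Wnt3A conditioned medium, and 1 each RNA of cells depleted in Wnt3A of MLLT10, DOT1L, BRG1, or P300. All cells, controls included, had received siRNA at 15 nM for 72 h, and HEK293T cells received conditioned medium for 9 h. The cells were pools of transfected cells in which depletion is partial. Each condition is 1 biological replicate, and the dye exchange measured the same RNA again, so there is no test between conditions and no p-value.

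YAP1 and WWTR1 (TAZ) bind no DNA themselves and act through TEAD factors. In the Hippo pathway, the kinases STK3 and STK4 activate LATS1 and LATS2, which phosphorylate YAP1 and WWTR1 and thereby keep them out of the nucleus. LATS2 and AMOTL2, an angiomotin family scaffold that binds YAP1, are at the same time inhibitors of the pathway's output and targets of it. In the intestine YAP1 is known for its part in regeneration and in colorectal tumors, and β-catenin, the Wnt effector whose coactivators were depleted here, is one of the factors that bear on YAP1 activity.

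The promoters of CCN2 and ANKRD1 are shown because, among the members, they hold the most matches to the TEAD motif, and because CCN2 and ANKRD1 are the standard reporters of YAP/TEAD activity. They are the 250 bases before the annotated start, from RefSeq on GRCh38.p14, both genes lying on the minus strand, at chr6:131951373-131951622 for CCN2 and chr10:90921088-90921337 for ANKRD1. Capitals mark GGAATG, the core of the TEAD motif.
CCN2: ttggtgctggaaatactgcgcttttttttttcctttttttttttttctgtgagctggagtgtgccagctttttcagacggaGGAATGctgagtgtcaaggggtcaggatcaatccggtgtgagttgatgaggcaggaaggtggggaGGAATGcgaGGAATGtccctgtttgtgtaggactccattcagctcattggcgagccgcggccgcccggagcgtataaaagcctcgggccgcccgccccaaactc
ANKRD1: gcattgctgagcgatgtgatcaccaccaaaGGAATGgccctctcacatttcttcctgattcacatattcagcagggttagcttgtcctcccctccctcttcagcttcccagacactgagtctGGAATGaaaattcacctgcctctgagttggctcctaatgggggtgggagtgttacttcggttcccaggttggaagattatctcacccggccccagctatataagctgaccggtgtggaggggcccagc
CCN2 has 3 matches, which begin 169, 104, and 95 bases before the start, all on the strand of the gene. ANKRD1 has 2, which begin 220 and 128 bases before it. The promoter table held 10 promoters of 7 of the 10 genes, with 2 starts each for WWTR1, AMOTL2, and AXL, and TEAD1, TEAD4, and CCN1 were not matched in it. GGAATG or its reverse CATTCC was found in 5 of these 7 genes. YAP1 had 1 match, AMOTL2 had 1 (CATTCC, beginning 69 bases before the second start), AXL had 1 at its second start, and WWTR1 and LATS2 had 0 in this window. Of 35116 promoters of the same length, 11.9% hold at least 1 match, 0.94% at least 2, and 0.0826% at least 3. A first look over 300 bases, 50 of them past the start, gave LATS2 1 match past its start, and the window was shortened after that look. Over the longer window 14.0% of promoters hold the motif. An AP-1 motif (TGANTCA, which reads the same on both strands) was found once, in ANKRD1, and in 6.57% of promoters, and the TCF/LEF core CTTTGA or its reverse TCAAAG was found once, in AMOTL2, and in 11.2% of promoters. The SRF CArG box was found in 0 of the 10 promoters over 300 bases, and in 1.29% of all. No binding was measured on these arrays, so a match is a stretch of letters only.

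**Figure D1:**
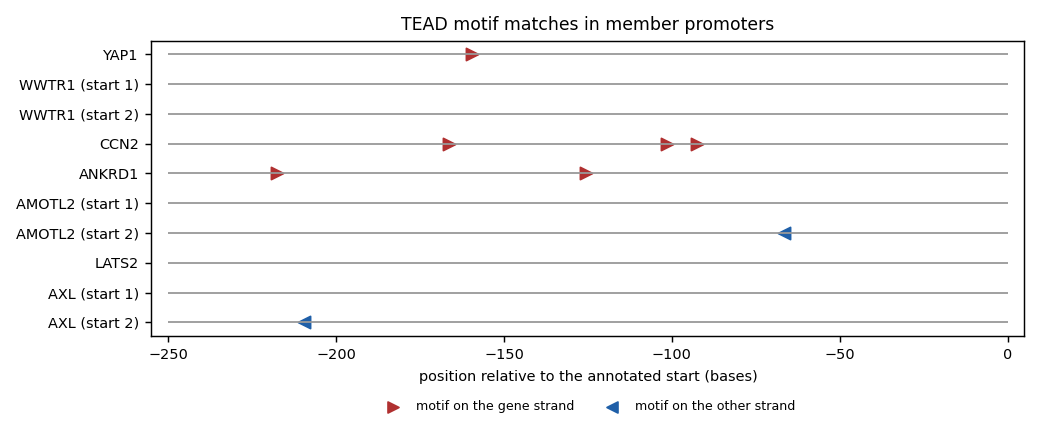
Positions of GGAATG (triangles pointing right, gene strand) and CATTCC (triangles pointing left, other strand) in the 250 bases before each annotated start of the 7 members with a promoter; the x axis is the distance from the start in bases, 1 line per start. CCN2 has 3 matches, ANKRD1 has 2, and YAP1, AMOTL2, and AXL have 1 each.

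The arrays had 18175 to 31088 well-measured features, meaning that at least 1 channel exceeded its local background by more than 2-fold. Reference arrays correlated with each other at r = 0.49 or above. Each siRNA target was lower in its own knockdown, with median log2 changes from −3.96 for SMARCA4 (BRG1) in HEK293T to −1.35 for EP300 (p300) in Ls174T, apart from 1 of 3 DOT1L features at 0.17. Of the colorectal epithelium markers, 9 of 10 were higher on every Ls174T array than on any HEK293T array, and 8 of the 9 HEK293T markers with a probe were higher on every HEK293T array. CDX2 and ZIC2 overlapped, and none of the markers was higher in the other line. The 5 slides held the β-catenin pair, then HEK293T CM, MLLT10, and DOT1L, then Ls174T si-control and MLLT10 with HEK293T BRG1 and p300, then Ls174T BRG1 and p300, and last the HEK293T si-control Wnt3A array by itself. For comparisons that use the last array, and for Ls174T BRG1 or p300 against si-control, slide and condition cannot be told apart.

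Of the 16 member probes, 14, of 9 genes, were well-measured on all 10 reference arrays. The others were the ANKRD1 probe and the second WWTR1 probe (A_32_P6868). Levels are given as log2 of sample over reference RNA, so a value compares a gene between samples and not with other genes. Of the 14 probes, 3 were higher on every Ls174T array than on any HEK293T array, 6 were higher on every HEK293T array, and 5 overlapped. Over the 25650 features measured on all 10 arrays, 57.6% did not overlap between the lines, 27.0% with Ls174T higher and 30.5% with HEK293T higher, so the members separated about as often as other features did. In RNA of whole cultures, fewer cells with a transcript and less of it per cell cannot be told apart.

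YAP1 was the member with the clearest excess in Ls174T. Probe A_23_P104762 gave 1.73 in si-control, 1.76 in MLLT10-, 1.53 in BRG1-, and 1.71 in p300-depleted Ls174T cells. In HEK293T cells it gave −0.40 in CM and −0.47 in Wnt3A with si-control, and −0.83, −0.69, −0.37, and −0.70 in cells depleted in turn of MLLT10/AF10, of DOT1L, of BRG1, and of p300. Every Ls174T value lay above every HEK293T value, and the controls, Ls174T si-control and HEK293T si-control in CM, differed by 2.13 (program error 0.33), or 4.39-fold. The second YAP1 probe gave 1.20 to 1.66 in Ls174T and −0.19 to 0.25 in HEK293T. The program error of a single array was between 0.20 and 0.26 for either probe. WWTR1, the paralog of YAP1, did not separate the lines, at −1.86 to −1.54 in Ls174T and −2.04 to −1.63 in HEK293T on probe A_23_P29769.

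The DNA-binding factors differed less. TEAD1 on probe A_23_P362893 was −1.56, −1.63, −1.37, and −1.33 in si-control, MLLT10, BRG1, and p300 Ls174T cells, and between −0.78 and −0.17 in HEK293T cells, with a median of −0.47. The second TEAD1 probe (A_23_P429340) overlapped, because the Ls174T BRG1 array at −0.38 lay within the HEK293T range of −0.55 to −0.05. TEAD4 overlapped, at 0.12 to 0.36 in Ls174T and 0.06 to 0.45 in HEK293T.

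The secreted targets CCN1 and CCN2, matricellular proteins that bind integrins, were lower in Ls174T, the line with more YAP1 RNA. CCN1 probe A_23_P46429 gave −4.28, −4.16, −4.46, and −3.69 in si-control, MLLT10, BRG1, and p300 Ls174T cells, and −2.89 to −2.21 in HEK293T with a median of −2.54. All 3 CCN1 probes separated the lines, with differences between the controls of −1.65, −2.01, and −1.31. CCN2 gave −6.33, −5.64, −6.28, and −5.77 in the same Ls174T samples, and −4.95 in CM, −4.87 in Wnt3A, and −5.11, −4.81, −4.96, and −5.53 in MLLT10-, DOT1L-, BRG1-, and p300-depleted HEK293T cells. The lowest HEK293T value of CCN2, in p300-depleted cells, and the highest Ls174T value, in MLLT10-depleted cells, lie closer together than the program error of 0.50 to 0.64 for a single array. Between the controls CCN2 differed by −1.38 (program error 0.82).

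AMOTL2 was the target gene with the reverse order. It gave −0.89, −0.80, −0.71, and −0.05 in si-control, MLLT10, BRG1, and p300 Ls174T cells, and −1.31 in CM, −1.38 in Wnt3A, and −1.94, −1.51, −1.13, and −1.94 in MLLT10-, DOT1L-, BRG1-, and p300-depleted HEK293T cells. The lines did not overlap, and the controls differed by 0.43 (program error 0.32). The probes of LATS2, a Hippo pathway kinase, disagreed. A_23_P204958 was higher on every HEK293T array, at −0.66 to −0.28 in Ls174T against −0.21 to 0.96, and A_24_P70002 overlapped, at −0.36 to 0.33 against −0.91 to −0.25. AXL, a receptor tyrosine kinase, was low against the reference in both lines, between −4.63 and −4.20 in Ls174T and between −4.58 and −4.19 in HEK293T.

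ANKRD1, a nuclear ankyrin repeat cofactor, was close to background. Its sample signal was well above background on 0 of 4 Ls174T reference arrays and on 5 of 6 HEK293T arrays, p300 depletion being the exception. Its log2 ratios were −2.76, −2.75, −3.08, and −1.33 in si-control, MLLT10, BRG1, and p300 Ls174T cells, and −0.52, −0.16, −0.33, −0.60, 1.23, and −1.45 in CM, Wnt3A, MLLT10, DOT1L, BRG1, and p300 HEK293T cells. The BRG1 array was the highest of the 10. ANKRD1 was also taken from the sample channel after normalization within and between arrays, in which the reference channel takes part. It was 1.71-fold higher in BRG1- than in p300-depleted HEK293T cells, and 1.17-fold higher in HEK293T in CM than in si-control Ls174T cells. Si-control HEK293T cells in Wnt3A were at 0.938-fold of p300-depleted cells by this measure, where the log2 ratios were −0.16 and −1.45. The p300 signal was not well above background, so neither measure shows whether p300 depletion changed ANKRD1. Signals not well above background were used here as measured, so these are not lower bounds. The comparisons were chosen after the values were seen.

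**Figure D2:**
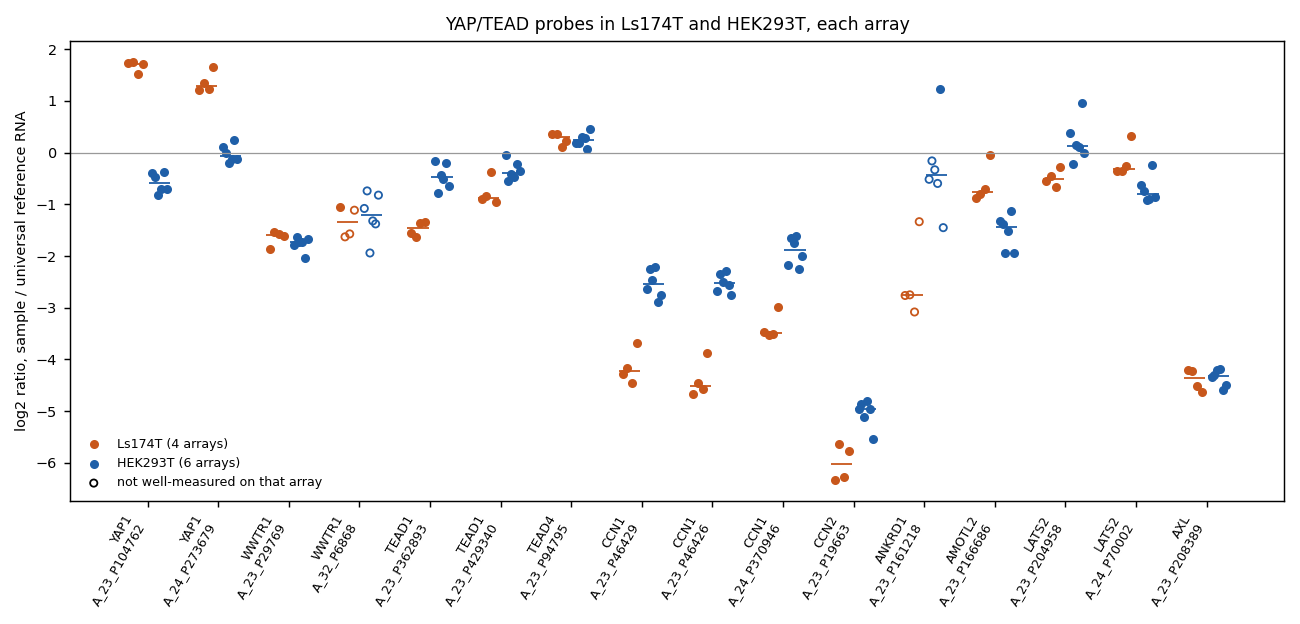
Log2 ratio of sample to universal reference RNA (y axis) for each of the 16 member probes (x axis), with 1 point per array, 4 Ls174T arrays in orange and 6 HEK293T arrays in blue; short lines are medians and open points were not well-measured on that array. YAP1 sits above 1.2 in Ls174T and below 0.25 in HEK293T, while CCN1 and CCN2 are lower in Ls174T.

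The Ls174T depletions ask whether the YAP/TEAD genes depend on β-catenin or on its coactivators. A probe was called here where it changed more than 2-fold. Upon β-catenin depletion 8 member probes, of 6 genes, were well-measured on both arrays, and 0 were past 2-fold, where 5.60% of 17706 features were. TEAD4 gave −0.43 on the first array and −0.52 with the dyes exchanged, a mean of −0.47 (program error 0.15), the lowest of the 8. For scale, the arrays of the pair differed by a median of 0.161 over all features and by 0.549 at the 95th percentile. YAP1 gave −0.07 and 0.15, and the brightest CCN1 probe gave 0.03 and 0.07. AMOTL2 gave −0.19 and −0.22, and AXL −0.12 and −0.08. LATS2 gave 0.45 and 0.47 on A_24_P70002 but −0.12 and 0.68 on A_23_P204958, so this probe turned sign with the dyes. TEAD1 probe A_23_P362893 gave −0.63 and −0.73 and was left out of the 8 because it was not well-measured on the second array. The second TEAD1 probe was not well above background in β-catenin-depleted cells on either array, and the bound from the channels was at least 1.06-fold lower. The second YAP1 probe (A_24_P273679) gave −0.39 and 0, and CCN1 probe A_24_P370946 gave 0.17 and −0.88. Neither was well-measured on the second array. CCN2, ANKRD1, and WWTR1 were not well-measured on either array.

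MLLT10/AF10 depletion in Ls174T, the one Ls174T comparison with the si-control reference array that lay within a slide, had 0 of 14 member probes past 2-fold, where 1.74% of all features were. The member probes had a median log2 change of 0.07, against −0.01 over all features. CCN2 had the highest value, 0.69, within its program error of 0.86, and it gave 0.14 with normexp background correction and loess and 0.15 with the same on repaired backgrounds, an alternative added after the data were seen. The other 13 lay between −0.07 and 0.32.

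BRG1 depletion also had 0 of 14 past 2-fold, where 5.26% of all features were, with a median of 0.04 against −0.02 over all features. TEAD1 gave 0.52 (program error 0.31) on probe A_23_P429340 and 0.20 on the other, and with the repaired backgrounds the former probe gave 0.12. CCN1 gave −0.18, 0.11, and −0.03 on its 3 probes, and with normexp and loess −0.18 became 0.43 and −0.03 became 1.03. AXL gave −0.31 (program error 0.65), which became 1.06 with normexp and loess.

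Upon p300 depletion 0 of 14 member probes were past 2-fold, where 5.90% of all features were, but the members had a median log2 change of 0.36 against 0.02 over all features, and 10 of 14 were above 0, where 52.7% of all features were. Probes of 1 gene are not independent, and among the 14 CCN1 has 3 probes, and LATS2, TEAD1, and YAP1 have 2 each. The highest values were those of target genes. AMOTL2 gave 0.84 (program error 0.30), its value going from −0.89 to −0.05. LATS2 gave 0.69 (program error 0.29) on A_24_P70002 and 0.27 on the other probe. CCN1 gave 0.59, 0.80, and 0.48, with program errors of 0.60, 0.64, and 0.52, and CCN2 gave 0.56 (program error 0.87). The CCN2 value depended on the background correction, at 1.90 with normexp and loess and −0.11 with the repaired backgrounds. The p300 array was the highest of the 4 Ls174T arrays for AMOTL2, for both LATS2 probes, and for all 3 CCN1 probes. AXL gave −0.43 (program error 0.66) and was the lowest value among the members, but gave 0.91 with normexp and loess, and TEAD4 gave −0.12. For YAP1 the probes gave −0.02 and 0.46. Against the BRG1 array on the same slide the direction was the same: BRG1 minus p300 gave −0.66 (program error 0.30) for AMOTL2, −0.77, −0.68, and −0.51 for CCN1, and −0.37 and −0.59 for LATS2. Of the 14 probes 0 were past 2-fold in that comparison, where 2.28% of all features were. There 11 of the 14 were below 0, where 47.6% of all features were above 0. The comparisons share the p300 array.

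**Figure D3:**
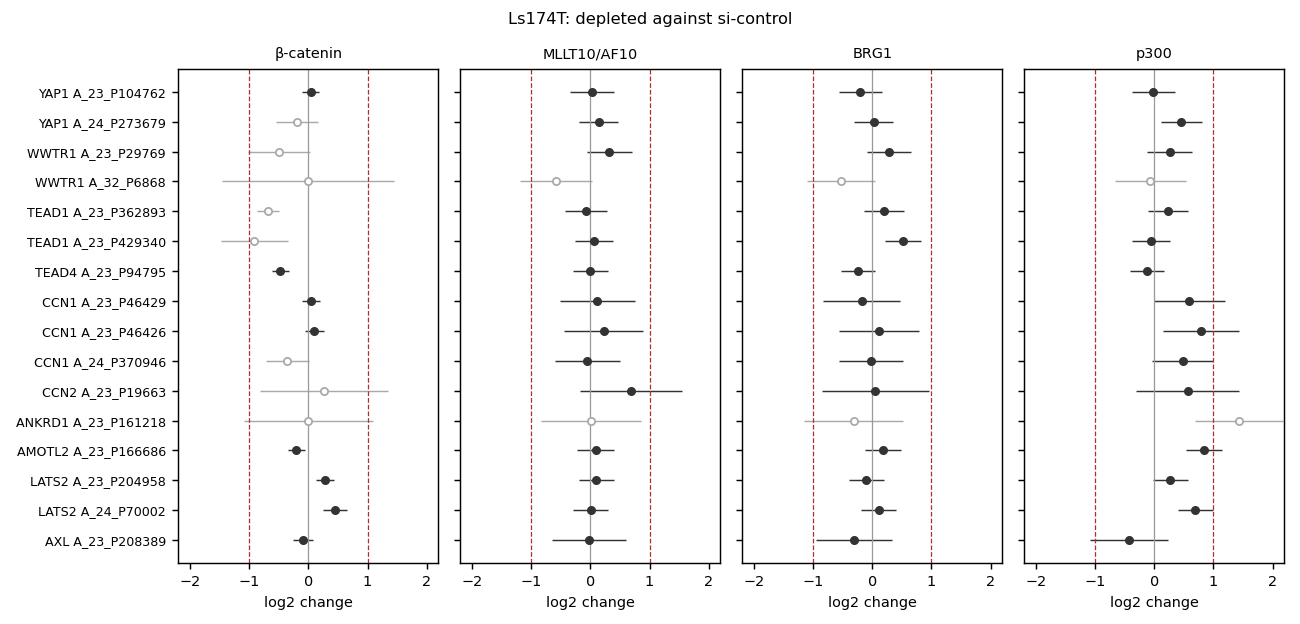
Log2 change of each member probe (rows) in Ls174T cells upon depletion of β-catenin, MLLT10/AF10, BRG1, and p300 against si-control; bars are the combined program error, dashed lines mark 2-fold, and gray open points were not well-measured on all arrays compared. No well-measured point passes 2-fold, and in the p300 panel AMOTL2 is farthest to the right at 0.84.

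In HEK293T cells, Wnt3A was compared with CM in si-control cells after 9 h, and a probe was called where it changed more than 1.5-fold. Of 14 member probes 0 were higher and 2 were lower, where 4.04% of all features were higher and 2.68% lower, 6.72% in all. TEAD1 on A_23_P362893 went from −0.17 in CM to −0.78 in Wnt3A, a change of −0.61 (program error 0.30), and its other probe from −0.05 to −0.55, a change of −0.50 (program error 0.30). LATS2 on A_23_P204958 went from 0.38 to −0.21, a change of −0.59 (program error 0.29), but its other probe gave −0.12. Both calls are near the threshold of 0.58 on the log2 scale, and with normexp on repaired backgrounds the called probes gave −0.56 and −0.46 and the other TEAD1 probe −0.10. The Wnt3A array of the si-control cells lay by itself on its slide. The MLLT10- and DOT1L-depleted Wnt3A arrays shared a slide with the CM array, and against it TEAD1 gave −0.27 and −0.37 on its 2 probes in MLLT10-depleted cells, and −0.35 and −0.42 in DOT1L-depleted cells. LATS2 A_23_P204958 gave −0.24 and −0.26 there. TEAD1 was thus lower than in CM on all 3 of these Wnt3A arrays, with the within-slide values smaller.

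The target genes CCN1 and CCN2 were not past 1.5-fold with Wnt3A. CCN1 gave 0.38, 0.33, and 0.52 on its 3 probes, with program errors of 0.43, 0.44, and 0.38. Within the slide of the CM array it gave 0.42, 0.39, and 0.56 in DOT1L-depleted cells and 0.17, 0.17, and 0.43 in MLLT10-depleted cells. CCN1 was above CM on each of its 3 probes in all 3 of these comparisons, which share the CM array. With normexp and loess the CCN1 probes turned sign with Wnt3A in si-control cells, to −0.12, −0.25, and −0.45, and with the repaired backgrounds they gave 0.32, 0.37, and 0.53. CCN2 gave 0.09 (program error 0.72), AMOTL2 −0.06, AXL 0.05, TEAD4 −0.01, WWTR1 0.16, and YAP1 −0.07 and −0.11.

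MLLT10/AF10 depletion in Wnt3A had 0 of 14 past 1.5-fold, where 7.43% of all features were. AMOTL2 was the lowest at −0.56 (program error 0.36), just inside the threshold, and LATS2 A_23_P204958 the highest at 0.35. YAP1 gave −0.36 and −0.19. Against the CM array of the same slide AMOTL2 gave −0.62 (program error 0.36) in MLLT10-depleted cells, the one member past 1.5-fold there, where 7.82% of all features were, and −0.19 in DOT1L-depleted cells, where 0 of 14 were past it against 5.92% of all features. DOT1L depletion had 0 of 14, where 5.77% of all features were, and its members lay between −0.23 and 0.33. Directly between MLLT10/AF10 and DOT1L depletion, on 1 slide, 0 of 14 were past 1.5-fold, where 3.65% of all features were, and AMOTL2 was the lowest at −0.43 (program error 0.37), with a value of −1.94 in MLLT10- and −1.51 in DOT1L-depleted cells.

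BRG1 depletion gave 3 of 14 member probes past 1.5-fold, where 22.2% of all features were, a share near that of the members. LATS2 A_23_P204958 went from −0.21 in si-control Wnt3A to 0.96, a change of 1.17 (program error 0.30), and was the highest of the 6 HEK293T arrays. The other LATS2 probe gave 0.49 (program error 0.30) and was also the highest there. CCN1 gave −0.64 (program error 0.45) and −0.61 (program error 0.39), past 1.5-fold, and −0.21 on the third probe. With normexp background correction and loess the called CCN1 probes gave −0.29 and −0.03, and with the repaired backgrounds −0.63 and −0.61. The Wnt3A comparison above uses the same si-control Wnt3A array with opposite sign. It gave −0.59 for LATS2 A_23_P204958, 0.38 and 0.52 for the called CCN1 probes, and −0.61 and −0.50 for the TEAD1 probes. In CM this LATS2 probe was at 0.38. The called CCN1 probes were at −2.63 and −2.17 in CM and at −2.89 and −2.25 upon BRG1 depletion. TEAD1 gave 0.58 and 0.34 (program error 0.30 for each), the latter −0.0022 with the repaired backgrounds. The TEAD1 probes were at −0.17 and −0.05 in CM and at −0.20 and −0.21 upon BRG1 depletion. WWTR1 gave −0.41 (0.87 with normexp and loess), and YAP1 0.09 and 0.25. ANKRD1, which was not well-measured on the control array, gave 1.39 (program error 0.40).

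p300 depletion gave 1 of 14 member probes past 1.5-fold, where 12.3% of all features were. This was CCN2, which went from −4.87 to −5.53, a change of −0.67 with a program error of 0.76. It gave −0.21 with normexp on repaired backgrounds and −1.25 from the sample channel alone. AMOTL2 gave −0.56 (program error 0.36), and CCN1 gave −0.50, −0.42, and −0.36. LATS2 gave 0.21 (program error 0.29) and −0.12 (program error 0.31), and AXL −0.19 (program error 0.65). ANKRD1 was not well above background on the p300 array, and the change of its ratios is given only among the results flagged below. Its value from the normalized sample channel is given above. The 14 member probes had a median of −0.16 against 0.01 over all features. Of the 14, 10 were below 0, where 51.0% of all features were above 0. The 10 include the 3 CCN1 probes and the 2 YAP1 probes, and probes of 1 gene are not independent. TEAD4 gave 0.27 and TEAD1 0.13 and 0.18.

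**Figure D4:**
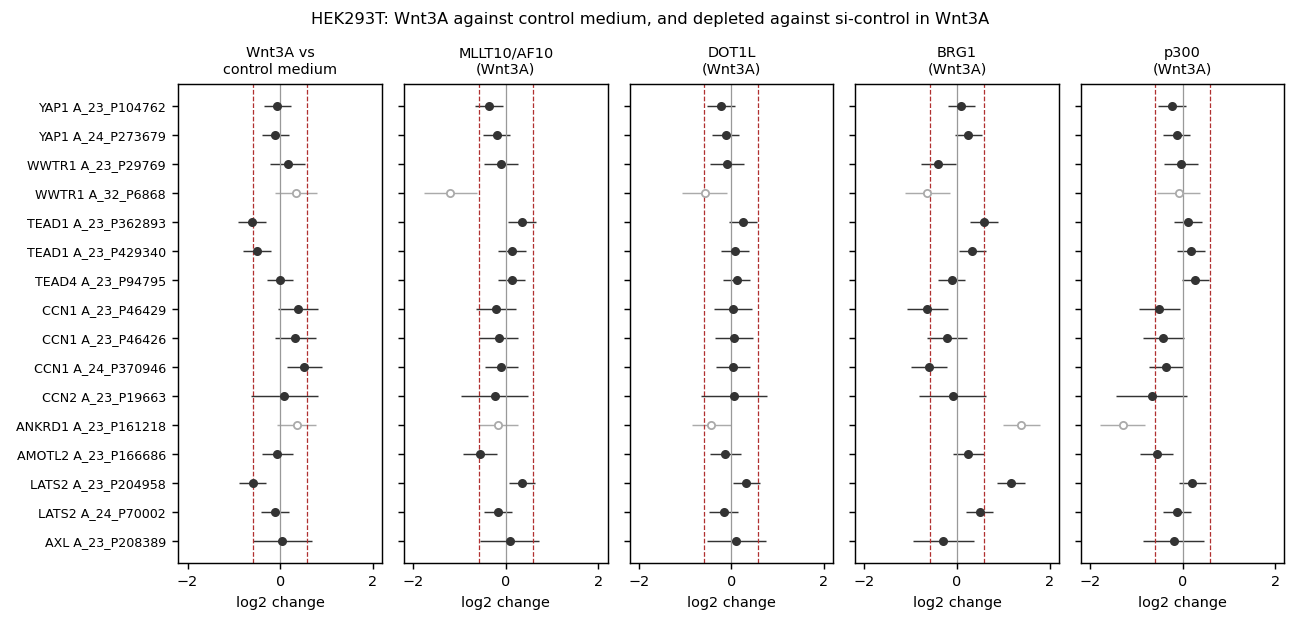
Log2 change of each member probe (rows) in HEK293T cells, for Wnt3A against control medium and, in Wnt3A, for each of the 4 depletions against si-control; bars are the combined program error, dashed lines mark 1.5-fold, and gray open points were not well-measured on all arrays compared. LATS2 A_23_P204958 upon BRG1 depletion, at 1.17, is the well-measured point farthest from 0.

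BRG1 and p300 depletion in HEK293T lay on 1 slide and can be compared without the si-control Wnt3A array. Of 14 member probes 3 were past 1.5-fold, all higher in BRG1-depleted cells, where 20.1% of all features were past it in either direction. AMOTL2 was higher by 0.80 (program error 0.35), and LATS2 by 0.96 and 0.61 (program error 0.30 for each). The share of member probes past the threshold is close to that of all features. CCN2 gave 0.57 (program error 0.76), CCN1 gave −0.14, 0.21, and −0.25, and TEAD4 gave −0.39. In Ls174T the same comparison, given above, had AMOTL2 at −0.66 and LATS2 at −0.37 and −0.59.

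**Figure D5:**
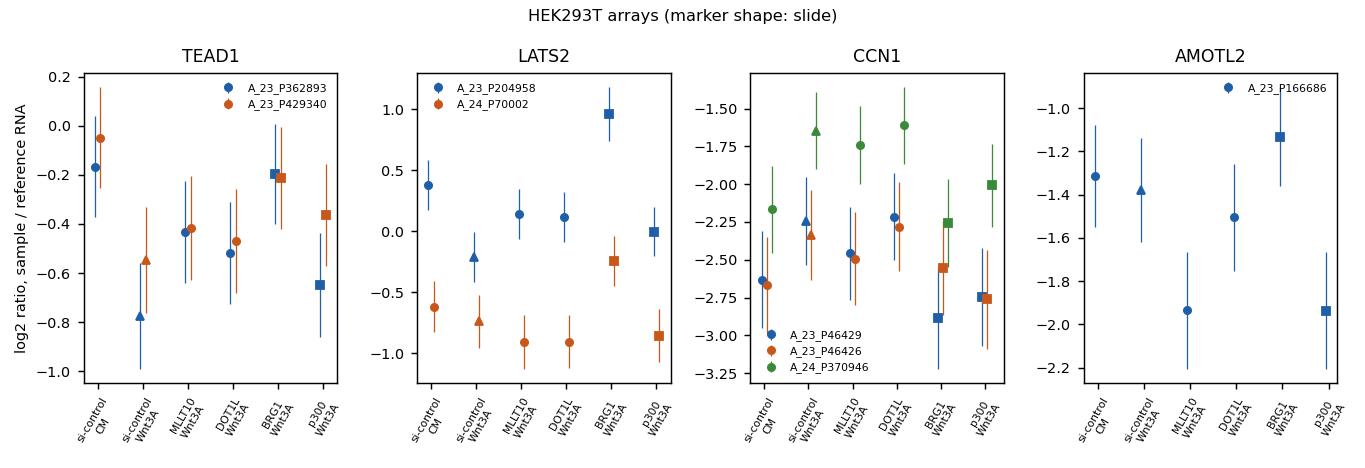
Log2 ratio to reference RNA (y axis) of TEAD1, LATS2, CCN1, and AMOTL2 probes (colors) on the 6 HEK293T arrays (x axis, CM is control medium); marker shape is the slide and bars are the program error of the array. LATS2 is highest upon BRG1 depletion, at 0.96 and −0.25, and TEAD1 is highest in control medium, at −0.17 and −0.05.

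Other Hippo pathway genes and TEAD cofactors, 20 genes with 36 probes, were looked at beside the members, with spots of 1 probe averaged. In Ls174T none of them was past 2-fold upon depletion of β-catenin, MLLT10/AF10, or BRG1, of 17, 32, and 32 probes measured, where 5.60%, 1.74%, and 5.26% of all features were, and 2 of 32 were higher upon p300 depletion, where 5.90% were past it in either direction. In HEK293T 1 of 33 was higher and 1 lower with Wnt3A, 1 of 31 was higher upon MLLT10/AF10 depletion, 0 of 32 upon DOT1L depletion, 3 of 32 were higher and 1 lower upon BRG1 depletion, and 0 of 31 upon p300 depletion. The shares of all features past 1.5-fold in either direction were 6.72%, 7.43%, 5.77%, 22.2%, and 12.3% in these comparisons, in this order. STK4 (MST1), the upstream kinase, was past the threshold in more than 1 comparison, at −0.61 (program error 0.30) with Wnt3A and 0.80 (program error 0.30) upon BRG1 depletion. These comparisons use the si-control Wnt3A array with opposite sign.

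Other YAP/TEAD target genes, 17 genes with 34 probes, were looked at in the same way. In Ls174T 1 of 10 measured probes was higher upon β-catenin depletion, 0 of 28 upon MLLT10/AF10 depletion, 3 of 29 were higher upon BRG1 depletion, and 2 of 28 upon p300 depletion, with none lower. In the same order 5.60%, 1.74%, 5.26%, and 5.90% of all features were past 2-fold in either direction. MYOF, a membrane repair protein, accounted for the first, at 2.40 (program error 0.21), and gave 1.30 and 1.06 upon BRG1 depletion on 2 probes. TGFB2, a TGF-β ligand, gave 1.81 (program error 0.36) upon p300 depletion in Ls174T and 1.05 (program error 0.61) upon BRG1 depletion in HEK293T. EDN1, a vasoactive peptide, gave 1.55 and 1.33 upon BRG1 and p300 depletion in Ls174T, where its sample signal was not well above background on every spot of both arrays.

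In HEK293T Wnt3A gave 3 of 28 of these probes higher and 1 lower, where 6.72% of all features were past 1.5-fold in either direction. Upon MLLT10/AF10 depletion 5 of 28 were lower and 2 higher, where 7.43% of all features were past 1.5-fold in either direction. Upon DOT1L depletion 4 of 28 were lower and 2 higher, where 5.77% were. Upon BRG1 depletion 6 of 28 were lower and 4 higher, where 22.2% were, and upon p300 depletion 10 of 27 were lower and 2 higher, where 12.3% were. The p300 comparison had a median of −0.45 against 0.01 over all features. IGFBP3 (A_24_P320699), an IGF-binding protein, gave −0.68, −0.66, −0.94, and −0.75 in these 4 depletions, in this order. THBS1, a secreted matrix protein, gave −0.86 and −1.03 upon BRG1 and p300 depletion on A_24_P142118, and −1.75, −1.30, −2.16, and −2.17 in the 4 depletions on A_23_P206212. The latter probe of THBS1 gave 0.90 with Wnt3A, and its values rest on sample signals not well above background on every spot. NT5E, a surface nucleotidase, gave −0.65 and −0.70 upon MLLT10/AF10 and DOT1L depletion on A_23_P111260. This probe gave 0.82 (program error 0.57) with Wnt3A. Its values of −1.55 and −1.43 upon BRG1 and p300 depletion rest on sample signals not well above background on both arrays. The same holds for the second NT5E probe, at 0.81 with Wnt3A and −0.83, 0.88, and 1.18 upon MLLT10/AF10, BRG1, and p300 depletion. Upon p300 depletion MYOF gave −1.01 (program error 0.81) and RBMS3 gave −0.66 (program error 0.48). A further probe of each, at 1.05 and −0.63, was not well above background on both arrays. Upon BRG1 depletion the former probes gave −0.75 (program error 0.79) for MYOF and 0.74 (program error 0.41) for RBMS3. CCN3, a paralog of CCN1 and CCN2, was higher, at 0.73 (program error 0.48) and 1.14 (program error 0.46) upon MLLT10/AF10 and DOT1L depletion. All 4 depletions share the si-control Wnt3A array, which had a slide to itself. In the slide shared by BRG1 and p300 depletion, 9 of 27 of these probes were higher in BRG1- than in p300-depleted cells and 0 were lower, where 20.1% of all features were past 1.5-fold. In the slide of the CM array, 4 and 3 of 28 probes were higher and 3 and 2 lower in MLLT10- and DOT1L-depleted Wnt3A cells than in CM, where 7.82% and 5.92% of all features were past 1.5-fold.

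The genes whose pattern was most like CCN1 and CCN2 were sought over the 10 reference arrays after the mean of each cell line had been subtracted, among 17414 probes whose sample signal was well above background on all 10. For CCN1 (A_23_P46429) they were MAP7D1 (r = 0.954), CTIF (r = 0.952), and DNMT3B (r = 0.949). For CCN2 they were ZFYVE27 (r = 0.913), HGS (r = 0.895), and TTC7A (r = 0.876). With so many probes and 10 arrays these values are a description. The other CCN1 probes gave r = 0.919 and r = 0.867 with the first, and CCN2 gave r = 0.595 with CCN1. The correlation with CCN1 was also taken within the 4 Ls174T and the 6 HEK293T arrays, given here in this order. It was positive and then negative for AMOTL2, at r = 0.869 and r = −0.119, and for TEAD1 (A_23_P362893), at r = 0.308 and r = −0.571. So it was for YAP1, at r = 0.963 and r = −0.551 (A_24_P273679) and r = 0.526 and r = −0.347 (A_23_P104762). LATS2 gave r = 0.982 and r = −0.712 (A_23_P204958) and r = 0.869 and r = −0.656 (A_24_P70002). AXL went the other way, at r = −0.478 and r = 0.889. The sign was the same in both lines for the other TEAD1 probe (A_23_P429340), at r = −0.722 and r = −0.704, and for CCN2, at r = 0.668 and r = 0.525. It was also the same for WWTR1 (A_23_P29769), at r = 0.159 and r = 0.668, and for TEAD4, at r = 0.168 and r = 0.143. Over so few arrays these too are a description.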

How the data were processed

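The authors labeled total RNA with Cy3 and Cy5, hybridized it to Agilent 4x44K arrays, and read the arrays with Feature Extraction, version 10.5.1.1 in the file headers and 8.5.1.1 in the submitters' processing notes. The intensities deposited for each channel are median signals, local backgrounds, and processed signals, from which the program had taken the background and the dye bias. The log10 ratios deposited, each with an error from the program's error model, are of processed Cy5 over Cy3. The sample was in Cy3 on all reference arrays. For the β-catenin pair the methods describe reference RNA, whereas the labels name si-control RNA as its partner, and the labels were followed. The deposited table of values holds the same log10 ratios, with the sign of 1 array of the pair turned. The largest difference was 1.56e-05 after conversion to log2.

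Ratios were then expressed as log2 of sample over reference RNA. For the pair they are of β-catenin-depleted over si-control RNA, and its 2 arrays were averaged as 1 replicate. A change is the difference between 2 arrays, and its error is the combined program error, which leaves out the spread between cultures. As in the methods, features were kept where, on every array compared, at least 1 channel exceeded its local background by more than 2-fold. Outlier-marked features were left out, a change past 2-fold was called in Ls174T cells and past 1.5-fold in HEK293T cells, and shares of all features count every spot. No test was made, since each condition has 1 array, and the number of arrays limits the precision. The files give RefSeq accessions, of which 94.9% (27612 of 29084 features) were matched to a symbol, and no genome build, so no gene coordinates are given. Promoters come from RefSeq (GRCh38.p14).

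Alternatives were normexp background correction (offset 50) with loess in limma 3.58.1, on median signals because no mean signals were used here, the sample channel alone scaled to its 75th percentile, other signal filters, the deposited table, and the other threshold. The local backgrounds of some arrays distorted normexp, so a version with repaired backgrounds was added after the data were seen. In it, features marked as background outliers were given the array median. The channel values for dim probes, among them the TEAD1 bound, were added then too, from channels normalized by Aquantile. The code was run on simulated arrays whose changes were past either threshold and whose noise was below the program errors. That check could hardly fail and says nothing on changes of the size reported here. Tools were Python 3.11.15, numpy 2.4.6, pandas 2.3.3, and R 4.3.3. The members and the gene lists were chosen with earlier results of these data known. A gene of the list of other targets is not reported here and was left out of its counts. Named genes are all members, and of the other lists those past the threshold in 2 or more comparisons.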

Additional observations from a re-analysis of the deposited data

Results flagged for a closer look

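AMOTL2 moved in opposite directions upon p300 depletion in the 2 cell lines, each time by more than the program error. It was the only such case among 27 comparisons of a well-measured member gene between the lines. They were made on the brightest probe of each gene for the MLLT10/AF10, BRG1, and p300 depletions that both lines share. The log2 change of AMOTL2 was 0.84 (program error 0.30) in Ls174T and −0.56 (program error 0.36) in HEK293T cells, a difference of 1.40. CCN1 was also opposite in sign upon p300 depletion on all 3 probes, but on its brightest probe the Ls174T change of 0.59 was within its program error of 0.60, against −0.50 (program error 0.44) in HEK293T. ANKRD1 was not among the 27, because it was not well-measured. Upon p300 depletion its ratios gave 1.43 (program error 0.74) in Ls174T and −1.29 (program error 0.48) in HEK293T, from signals close to background. Each line has 1 array per condition, and no difference between the lines was tested. Both AMOTL2 values are larger than their program error, and in each line p300 and si-control lay on different slides. Against the BRG1 array of the same slide, p300-depleted cells had more AMOTL2 RNA by 0.66 in Ls174T and less by 0.80 in HEK293T. No group holds enough arrays to be searched for a sample far from the others.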

How the results depend on the processing

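Of 904 values of single member probes under the alternatives, 853 moved by less than their program error and 51 by more. Many of the 853 could not move, because a filter leaves a value as it is and the deposited table holds the same ratios. These were 120 each for the deposited table, no signal filter, and outlier-marked features kept, and 112 for both channels above background. Of 134 values under each setting, 33 moved with normexp and loess on the deposited backgrounds. With the repaired backgrounds 7 moved, and with the sample channel alone 5. None of the called values turned sign, but 73 values of uncalled probes did, 4 of them larger than their program error as reported. The counts of member probes past the threshold depended on the processing more, as did those of all features, whose share past the threshold follows each count in parentheses. With normexp and loess they were 4 in Ls174T BRG1 (15.1%), 3 in Ls174T p300 (11.7%), 5 in Wnt3A (28.3%), 1 in HEK293T MLLT10/AF10 (1.63%), 6 in HEK293T BRG1 (22.8%), and 0 in HEK293T p300 (4.36%). With the sample channel alone they were 1 in Ls174T p300 (10.6%), 5 in Wnt3A (19.9%), 2 in HEK293T MLLT10/AF10 (17.1%), 8 in HEK293T BRG1 (37.0%), and 3 in HEK293T p300 (23.1%). Without the filter on signal they were, of 16 probes, 1 in Ls174T p300 (11.2%), 1 in HEK293T MLLT10/AF10 (17.8%), 5 in HEK293T BRG1 (29.0%), and 2 in HEK293T p300 (21.9%). With the other threshold (1.5-fold in Ls174T, 2-fold in HEK293T) they were 1 in Ls174T MLLT10/AF10 (4.52%), 4 in Ls174T p300 (14.9%), 0 in Wnt3A (1.85%), 1 in HEK293T BRG1 (6.79%), and 0 in HEK293T p300 (4.16%). With normexp on repaired backgrounds they were 0 in Wnt3A (2.52%), 1 in HEK293T MLLT10/AF10 (1.66%), and 0 in HEK293T p300 (4.46%). The count upon β-catenin depletion was 0 under every alternative, with either array of the pair left out too, and DOT1L depletion had no count that moved. The cause was not tested, apart from the threshold and the filter, which change the count by construction. With the HEK293T si-control Wnt3A array as control in place of CM, the differences between the lines kept their sign. AMOTL2 upon p300 depletion ranged from 0.73 to 0.84 in Ls174T and from −0.67 to −0.54 in HEK293T. No paired analysis was possible because each condition has 1 biological replicate and the labels give no replicate numbers. Signal limits ANKRD1, CCN2 in Ls174T, and the β-catenin pair, where 8 of 16 member probes were well-measured.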
